A study of Mus musculus with 12 samples.

Results

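The genes examined were those for matrix metalloproteases (MMPs), ADAMTS proteases, ADAMTS-like proteins, tissue inhibitors of metalloproteases (TIMPs) and the plasminogen activators Plau and Plat with the receptor Plaur. They were chosen by symbol alone from a table of 47480 gene symbols, which gave 54 members. Of these, 40 had more than 1 CPM (counts scaled to library size, with sizes adjusted by the TMM method) in 6 or more of the 12 samples and were analysed. The other 14 lay below that level, and none of them entered the test.

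RNA was sequenced from trigeminal nerve, the sensory nerve of the face, of Nf1 flox/flox mice. The 6 samples labelled normal nerve were Nf1 flox/flox PostnCre-, and the 6 labelled plexiform neurofibroma were Nf1 flox/flox PostnCre+. Both groups carried the floxed Nf1 alleles, and only the tumour group carried the Cre, which is named for Postn, so that Cre, loss of Nf1 and tumour cannot be told apart. Plexiform neurofibroma is a benign tumour of the nerve sheath that forms when cells of the Schwann lineage lose neurofibromin, and it holds fibroblasts, macrophages, mast cells and abundant matrix beside Schwann cells. The labels give no age, sex, litter or batch and do not say that each sample was a separate animal, so the p-values measure the spread between these samples.

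MMPs are zinc proteases that cleave collagens, basement membrane and other matrix proteins, and most are secreted as inactive proenzymes. Membrane-type MMPs sit on the cell surface, where Mmp14 activates pro-Mmp2 with the help of Timp2. ADAMTS proteases are secreted and cut proteoglycans, procollagens or cartilage oligomeric matrix protein, while ADAMTS-like proteins share their ancillary domains without the protease domain. TIMPs inhibit MMPs and some ADAM and ADAMTS proteases. The plasminogen activators turn plasminogen into plasmin, which degrades fibrin and can activate pro-MMPs, and in nerve tissue Plat is also made by Schwann cells and sensory neurons.

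Total counts per library ran from 14159973 to 19989325. Nf1 itself measured 85.5 to 173 CPM in normal nerve and 69.6 to 93.1 CPM in tumours (fold 0.639, edgeR adjusted p = 0.0179). Schwann cell markers were present in all libraries, and so were genes of sensory neuron cell bodies such as Scn10a, at 269.5 to 758 CPM in normal nerve and 383 to 670.4 CPM in tumours. Normal nerve replicate 6 stood apart, with CNS genes such as Gad1 at 143 CPM, against 0.357 to 4.34 CPM in the other 11 libraries. Mog, Olig2, Aqp4 and Gfap were also highest there, Gfap only just (236 CPM, beside 221 CPM in normal nerve replicate 1). The CNS marker Slc17a7 was lowest there, at 69.6 CPM. Plexiform neurofibroma replicate 1 came second for Mog and Olig2, at 15.8 and 10.8 CPM. Normal nerve replicate 3 and plexiform neurofibroma replicate 1 held skeletal muscle genes (Ckm at 46.8 and 202 CPM). Normal nerve replicate 2 had the lowest summed fibroblast, macrophage and Schwann cell markers.

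Of the 40 analysed members, 9 were higher in plexiform neurofibroma and 2 were lower, and 29 did not pass the test, a called share of 27.5% beside 18.7% of all tested genes (edgeR quasi-likelihood test, Benjamini-Hochberg adjusted p under 0.05 over 17236 genes). The higher members were Timp1, Adamtsl1, Mmp2, Mmp19, Adamts7, Adamtsl2, Mmp14, Plat and Plau, and the lower members were Mmp24 and Adamts3. The higher share was 22.5% of members, beside 10% of all tested genes and 10.6% of tested genes that met the same CPM level. The lower share was 5%, beside 8.63% of all tested genes and 9.13% of those at the same CPM level. The groups did not overlap for 5 members on the higher side (12.5%, beside 4.4% of all tested genes) and for 1 on the lower side (2.5%, beside 2.99%). The median log2 fold change was 0.16 over the analysed members and -0.02 over all tested genes, and 24 of the 40 lay above 0. In bulk tissue more cells of a type and more RNA per cell cannot be told apart, which holds for every result here.

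The background moved with the settings named below. DESeq2 called 13.1% of tested genes higher and 11.9% lower, and limma-voom called 16.7% and 15.7%. With normal nerve replicate 1 left out the shares were 10.2% and 8.59%, with normal nerve replicate 6 left out 14.6% and 14.2%, and with plexiform neurofibroma replicate 1, 4 or 5 left out 9.04% and 6.56%, 6.3% and 4.62%, and 9.68% and 7.97%. A correction for transcript length gave 8.65% and 6.53%. Leaving out normal nerve replicates 3 and 6 with plexiform neurofibroma replicate 1 gave 12.4% and 10.9%. Of the 11 calls among members, 9 held under each of these settings, and the exceptions were Plau and Adamtsl2.

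**Figure D1:**
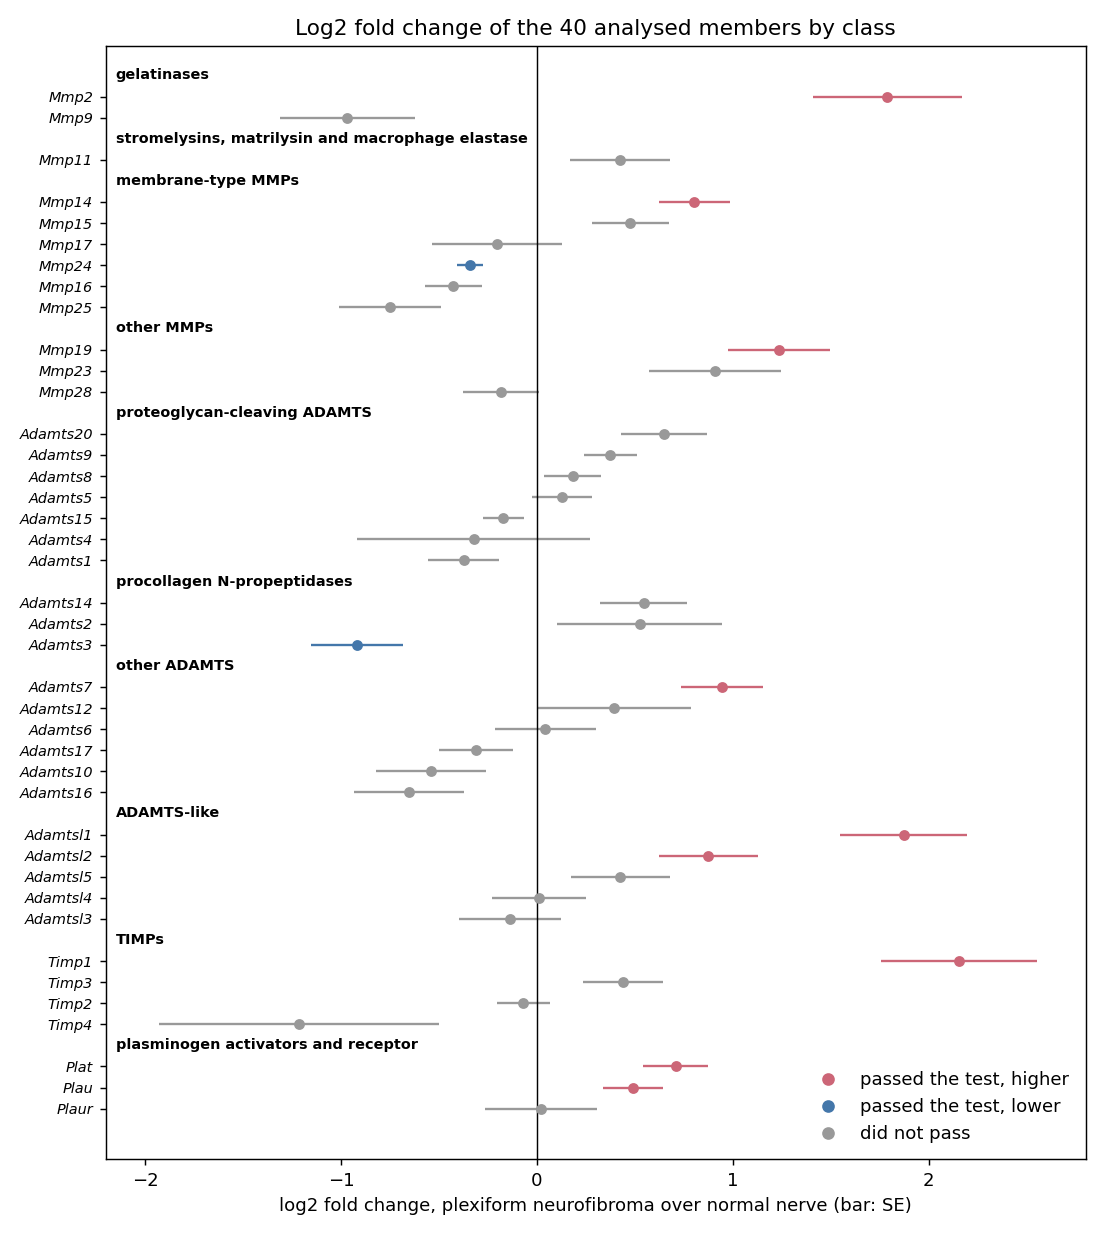
Log2 fold change of plexiform neurofibroma over normal nerve (x axis) for the 40 analysed members, grouped by class, with the standard error (derived from the F statistic) as a bar. Red points passed the test as higher (9 members), blue points as lower (2), and grey points did not pass (29).

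The 14 members below the level were Mmp1a, Mmp1b, Mmp3, Mmp7, Mmp8, Mmp10, Mmp12, Mmp13, Mmp20, Mmp21, Mmp27, Adamts13, Adamts18 and Adamts19. Of these, 10 are the MMP genes that lie side by side on mouse chromosome 9 between 7272514 and 7699585 (GRCm38), a stretch of 427 kb. This cluster holds the collagenases, the stromelysins Mmp3 and Mmp10, the matrilysin Mmp7 and the macrophage elastase Mmp12, several of which are known to be switched on in inflammation and injury through the transcription factor AP-1. None of the 10 met the level, and 9 of them stayed under 1 CPM in every library. Mmp1a, Mmp1b and Mmp7 had 0 counts in all 12 libraries, which allows up to 0.214 CPM in the library of least depth (3 counts, counting error only). Mmp13 was closest to the level, at 0.152, 0, 3.63, 0.556, 0.214 and 0.133 CPM in normal nerve replicates 1 to 6 and 1.54, 0.802, 1.48, 0.498, 0.116 and 0.129 CPM in plexiform neurofibroma replicates 1 to 6. Its highest value was in normal nerve replicate 3, and it passed 1 CPM in 3 libraries. Just inside the level was Mmp9, with more than 1 CPM in exactly 6 libraries.

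The promoters of this cluster share a feature that the choice by symbol did not use. The AP-1 letters TGANTCA, which read the same on both strands, were searched in RefSeq promoter windows of 300 bases (250 before to 50 after the start, GRCm38.p6). The table held windows for 37 of the 54 members. The letters occurred in 8 of the 10 genes of the chromosome 9 cluster, against 8.97% of all 27025 genes and 7.81% of all 32851 windows in the table. The 10 are neighbouring genes of a single family, so they are not 10 separate observations. The letters occurred in 1 of the 24 analysed members with a window, Plaur, and in 0 of the 5 called members with one (Mmp14, Mmp24, Adamts3, Adamtsl2 and Timp1). Windows of 6 members follow, from 5′ to 3′ on the gene's strand with the motif in capitals and the position of its first base counted from the start, to show the letters in cluster genes that were barely counted here and in Plaur, which was analysed.
Mmp13, motif at -35, chr9:7272459-7272505, plus strand: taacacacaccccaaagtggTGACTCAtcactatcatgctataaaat
Mmp3, motif at -46, chr9:7445756-7445802, plus strand: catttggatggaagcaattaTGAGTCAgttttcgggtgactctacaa
Mmp1a, motif at -73, chr9:7464048-7464094, plus strand: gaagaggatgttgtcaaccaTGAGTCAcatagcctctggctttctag
Mmp10, motif at -63, chr9:7502259-7502305, plus strand: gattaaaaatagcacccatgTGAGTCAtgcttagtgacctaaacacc
Mmp7, motif at -63, chr9:7692007-7692053, plus strand: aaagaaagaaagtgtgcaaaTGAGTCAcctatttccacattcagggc
Plaur, motif at -69, chr7:24462394-24462440, plus strand: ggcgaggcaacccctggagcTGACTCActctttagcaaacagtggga
In Mmp13 and Plaur the motif reads TGACTCA, and in the other 4 shown it reads TGAGTCA. A related spelling, TGAGTAA, was searched on both strands after Timp1 showed no match to the first, and no member held both spellings. It was found in 1 of the 37 members, Timp1, which is close to the share of 3.09% of all genes in the table. The spelling was tried because of Timp1, so its match there is no evidence about that gene. In Timp1 it lies 27 bases past the annotated start.
Timp1, motif at 27, chrX:20870182-20870208, plus strand: ggtgggtggaTGAGTAAtgcgtccagg
A match is a description of letters in a window, and binding was not measured.

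Of both gelatinases, 1 passed, Mmp2, beside 18.7% of all tested genes. Mmp2 (chromosome 8, 92827291 to 92853420, plus strand), the gelatinase made mainly by fibroblasts and other mesenchymal cells, measured 18.2, 3.46, 26.6, 12.9, 20.5 and 18.9 CPM in normal nerve replicates 1 to 6. In plexiform neurofibroma replicates 1 to 6 it measured 47.9, 86.3, 48.1, 67.7, 32 and 64.6 CPM. Every tumour library lay above every normal library, with normal nerve replicate 2 far below the others and plexiform neurofibroma replicate 2 the highest. The same libraries had the lowest and the highest summed level of fibroblast markers, 133 and 2329 CPM. This also held for Schwann cell markers (2487 and 11310 CPM) and mural cell markers (107 and 492 CPM). The part of these cell types in the result was not tested. Mmp2 rose 3.45-fold, normal nerve averaging 16.8 ± 7.88 CPM and the tumours 57.8 ± 19.1 CPM (SD, n = 6 per group), and the fit gave a log2 fold change of 1.79, an SE of 0.38 and an adjusted p of 0.00918. Mmp9 (chromosome 2, 164940780 to 164955850, plus strand), the gelatinase typical of neutrophils and osteoclasts, had values near 1 CPM, 0.863, 1.32, 1.9, 2.15, 0.998 and 2.19 CPM in normal nerve and 1.23, 1.03, 0.966, 0.443, 0.757 and 0.324 CPM in tumours. On the log2 scale the difference came to -0.97 (adjusted p = 0.0657, SE 0.34) for Mmp9, with overlap between groups. Without normal nerve replicate 1 Mmp9 passed as lower at -1.10 (adjusted p = 0.0435), as it did with DESeq2 (adjusted p = 0.0444) and limma-voom (adjusted p = 0.0376). In all, it passed in 1 of the 12 fits that left out 1 library and in 2 of the 8 other settings. Of the 6 neutrophil markers, Ly6g and Elane were near 0, and the list summed to 0.348 to 11.3 CPM in normal nerve and 0.229 to 11.3 CPM in tumours.

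Of the 6 membrane-type MMPs, 1 was higher and 1 was lower, beside 10% and 8.63% of all tested genes. Mmp14 (chromosome 14, 54431612 to 54445364, plus strand), also called MT1-MMP and the activator of pro-Mmp2, measured 34, 16.4, 28.6, 25.7, 26.4 and 27.9 CPM in normal nerve and 42.8, 58.6, 37.5, 59.4, 32.2 and 47.1 CPM in tumours. The 2 groups overlapped only in that normal nerve replicate 1 lay above the lowest tumour library, replicate 5. Mmp14 rose 1.75-fold, normal nerve averaging 26.5 ± 5.76 CPM and the tumours 46.3 ± 11.1 CPM (SD, n = 6 per group), and the fit gave a log2 fold change of 0.80, an SE of 0.18 and an adjusted p of 0.0109. Mmp24 (chromosome 2, 155775342 to 155818366, plus strand), or MT5-MMP, is known for its expression in neurons, sensory neurons included, where it cleaves N-cadherin. Its libraries were close together, at 44.4, 47.1, 47.6, 45.7, 43.5 and 42.1 CPM in normal nerve and 34.9, 36.5, 38.2, 31.6, 39.6 and 32.9 CPM in tumours, and every tumour library lay below every normal one. Mmp24 fell to 0.79 of the normal level, normal nerve averaging 45.1 ± 2.15 CPM and the tumours 35.6 ± 3.09 CPM (SD, n = 6 per group), and the fit gave a log2 fold change of -0.34, an SE of 0.07 and an adjusted p of 0.0062. The SE of 0.07 was the smallest of the 40 members. Among sensory neuron markers the 6 tested had a median log2 fold change of -0.11 with none called. Other neuronal genes were called lower, Serpini1 at -0.40, Spock1 at -0.51, Syn1 at -0.53 and Syn2 at -0.44, while Syn3 was higher at 1.03. The part of neuron content in the Mmp24 value was not tested.

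Mmp15 (MT2-MMP) was the most abundant membrane-type member and did not pass. It measured 143, 76.1, 124, 129, 118 and 55.9 CPM in normal nerve and 153, 167, 128, 173, 136 and 143 CPM in tumours, so that its 2 lowest values, in normal nerve replicates 6 and 2, stood well below the rest. For Mmp15 the log2 fold change came to 0.48 (adjusted p = 0.104, SE 0.20). Mmp25, a membrane MMP anchored by a lipid and known from leukocytes, had 10.5 to 39.2 CPM in normal nerve and 9.68 to 21.2 CPM in tumours, and its log2 fold change came to -0.75 (adjusted p = 0.0615, SE 0.26). Its lowest normal value, 10.5 CPM, was in replicate 6, and without that library Mmp25 passed as lower at -0.91 (edgeR adjusted p = 0.00334). With all 12 libraries it passed under DESeq2 (adjusted p = 0.0229) and limma-voom (adjusted p = 0.00667). Of the 12 fits without 1 library 1 called Mmp25, and of the 8 other settings 3 did. Mmp16 (MT3-MMP) had a log2 fold change of -0.43 (adjusted p = 0.0571, SE 0.15) and passed as lower without normal nerve replicate 1 (adjusted p = 0.0389) or plexiform neurofibroma replicate 1 (adjusted p = 0.026). DESeq2 and limma-voom also called Mmp16 lower over all libraries (adjusted p = 0.0311 and 0.0397). Mmp16 passed in 2 of the 12 fits without 1 library and in 3 of the 8 other settings. Mmp17 (MT4-MMP) measured 26.9 CPM in normal nerve replicate 6 and 6.20 to 10.8 CPM in the other normal libraries. Its log2 fold change of -0.20 (adjusted p = 0.694, SE 0.33) turned to 0.24 without that library (adjusted p = 0.346).

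Among the remaining MMPs, 1 of 4 passed, beside 18.7% of all tested genes. Mmp19 (chromosome 10, 128790910 to 128800824, plus strand), a secreted MMP that cleaves basement membrane and is found in vessels and mesenchyme, measured 5.89, 2.39, 5.81, 3.82, 3.78 and 7.44 CPM in normal nerve and 10.6, 14.4, 8.7, 15.1, 7.51 and 12.4 CPM in tumours. The groups met but did not overlap, the highest normal library at 7.44 CPM being replicate 6 and the lowest tumour library at 7.51 CPM being replicate 5. Mmp19 rose 2.36-fold, normal nerve averaging 4.86 ± 1.84 CPM and the tumours 11.4 ± 3.06 CPM (SD, n = 6 per group), and the fit gave a log2 fold change of 1.24, an SE of 0.26 and an adjusted p of 0.0081. Gm47093 spans Mmp19 on the other strand, and Tmem198b overlaps its 3′ end there with an adjusted p of 0.054 of its own. Mmp23, a short MMP that is anchored by its propeptide, had a log2 fold change of 0.91 (adjusted p = 0.0741, SE 0.34) and passed as higher at 1.19 without normal nerve replicate 6 (adjusted p = 0.0111). Over all libraries DESeq2 and limma-voom called Mmp23 higher (adjusted p = 0.0389 and 0.0171). Calls of Mmp23 came from 1 of the 12 fits without 1 library and 3 of the 8 other settings. Mmp11 (stromelysin-3), known from the stroma of carcinomas, measured 3.5, 1.78, 2.94, 2.43, 2.85 and 3.65 CPM in normal nerve and 4.71, 4.3, 3.92, 4.82, 1.57 and 3.69 CPM in tumours, with plexiform neurofibroma replicate 5 the lowest of all 12. For Mmp11 the log2 fold change came to 0.42 (adjusted p = 0.252, SE 0.26). Mmp28 (epilysin), which is known in myelinating nerve, measured 12.1, 9.66, 11.9, 13.2, 14.5 and 5.18 CPM in normal nerve and 9.89, 8.99, 10.7, 10.5, 8.73 and 9.9 CPM in tumours. Mmp28 differed by -0.18 (adjusted p = 0.527, SE 0.19) on the log2 scale. With its lowest library, normal nerve replicate 6, left out it passed as lower at -0.33 (adjusted p = 0.0392). This was 1 of the 12 fits without 1 library, and 0 of the 8 other settings called Mmp28. The highest edgeR adjusted p was 0.786, without normal nerve replicate 5.

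Per kilobase of the longest annotated transcript, the order of MMP levels changed between the groups below the first place. Mmp15 held the largest mean share of the summed MMP level per kb in both groups, 33% ± 6.78 in normal nerve and 33.6% ± 2.65 in the tumours (SD, n = 6 each). In normal nerve Mmp24 and Mmp14 came next, at 17.2% ± 2.89 and 13.1% ± 2.17, with ranges of 14.4% to 22.3% and 10.3% to 16.5% that overlapped. In the tumours Mmp2 came second, with a share of 8.54% ± 3.76 in normal nerve and 21% ± 4.13 in the tumours, ahead of Mmp14 at 16.2% ± 1.43 and Mmp24 at 9.74% ± 2.23. The order below Mmp15 depends on the length used. With merged exons in place of the longest transcript Mmp14 came to 8.34% and 10.3%, behind Mmp25 in normal nerve at 9.62% and behind Mmp24 in the tumours at 10.5%, while Mmp15 and Mmp2 stayed the first and the second in the tumours. These shares are a description of levels and were not tested.

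**Figure D2:**
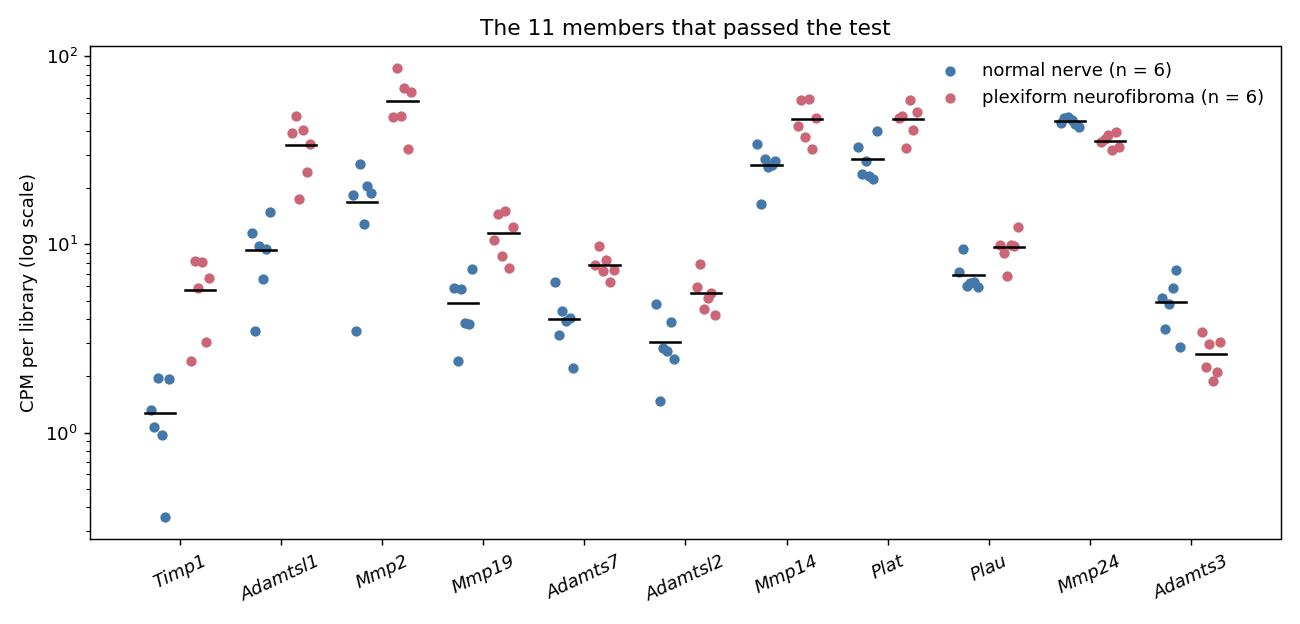
CPM on a log axis for the 11 members that passed the test, with 1 point per library (blue, 6 normal nerve; red, 6 plexiform neurofibroma) and the group mean as a line. Timp1, Adamtsl1, Mmp2, Mmp19 and Adamts7 have every tumour library above every normal one, and Mmp24 every tumour library below.

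No proteoglycan-cleaving ADAMTS gene passed, 0 of 7, beside 18.7% of all tested genes. Adamts5 (chromosome 16, 85856173 to 85901828, minus strand), the main aggrecanase of mouse cartilage and the most abundant ADAMTS here, measured 148, 87.1, 100.5, 104, 124 and 78 CPM in normal nerve and 127, 116, 128, 82.7, 114 and 133 CPM in tumours. Its values were spread alike in both groups, with a log2 fold change of 0.13 (adjusted p = 0.585, SE 0.15). Adamts20 and Adamts9, the pair of enzymes with a GON domain that cleave versican, came closest, at 0.65 (adjusted p = 0.0569, SE 0.22) and 0.38 (adjusted p = 0.0658, SE 0.13). Both passed as higher without normal nerve replicate 1 (adjusted p = 0.0324 and 0.0312), without plexiform neurofibroma replicate 5 (0.0359 and 0.0291) and after a correction for transcript length (0.0354 and 0.023). DESeq2 called both higher over all libraries (adjusted p = 0.0254 and 0.0430), and limma-voom called Adamts20 (adjusted p = 0.0385). Each passed in 2 of the 12 fits without 1 library. Of the 8 other settings, 3 called Adamts20 and 2 called Adamts9. A730049H05Rik lies within Adamts9 on the other strand and was itself called higher, at 2.68-fold (edgeR adjusted p = 0.00576). There 9530026P05Rik overlaps Adamts9 in part and was not called, at a log2 fold change of -0.34 (adjusted p = 0.144). How reads were shared between these genes was not tested. Adamts1 and Adamts15 had log2 fold changes of -0.37 (adjusted p = 0.16, SE 0.18) and -0.17 (adjusted p = 0.264, SE 0.11), and Adamts8 was at 0.18 (adjusted p = 0.385, SE 0.14). Adamts4, an aggrecanase induced by cytokines, measured 18.5 CPM in normal nerve replicate 6 and 1.43 to 7.60 CPM in the other normal libraries. Its log2 fold change of -0.32 (adjusted p = 0.73, SE 0.59) turned to 0.37 without that library (adjusted p = 0.598).

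Among the 3 procollagen N-propeptidases, which trim the amino end of fibrillar procollagens, 1 was lower, beside 8.63% of all tested genes. Adamts3 (chromosome 5, 89677087 to 89883334, minus strand), which also activates the lymphatic growth factor Vegfc, measured 5.18, 3.56, 4.84, 5.84, 7.34 and 2.85 CPM in normal nerve and 3.43, 2.23, 2.95, 1.88, 2.1 and 3.04 CPM in tumours. Normal nerve replicate 6 lay among the tumour values, and the 5 other normal libraries lay above all of them. Adamts3 fell to 0.53 of the normal level, normal nerve averaging 4.93 ± 1.61 CPM and the tumours 2.61 ± 0.619 CPM (SD, n = 6 per group), and the fit gave a log2 fold change of -0.92, an SE of 0.24 and an adjusted p of 0.0188. Adamts2, the main enzyme of the class for collagen I and III, measured 5.99, 4.22, 13.1, 5.63, 6.34 and 22 CPM in normal nerve and 11.2, 20.1, 13.3, 15.6, 5.01 and 17.2 CPM in tumours. Its highest library was normal nerve replicate 6, and its log2 fold change came to 0.52 (adjusted p = 0.398, SE 0.42). Without normal nerve replicates 3 and 6 and plexiform neurofibroma replicate 1 it passed as higher at 1.36 (adjusted p = 0.0188). That was 1 of the 8 other settings, and 0 of the 12 fits without 1 library called Adamts2. Adamts14 was at 0.55 (adjusted p = 0.0993, SE 0.22), with tumour libraries 1 and 5 at 1.90 and 1.69 CPM, inside the normal range, and the other 4 above it.

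ADAMTS substrates and their partners were called more often as higher than as lower. Of 20 listed substrates and partners, 7 were higher and 2 lower, beside 10% and 8.63% of all tested genes, with a median log2 fold change of 0.21. The microfibril protein Fbn2 rose 3.92-fold, normal nerve averaging 3.36 ± 0.793 CPM and the tumours 13.2 ± 5.4 CPM (SD, n = 6 per group), and its relative Fbn1 rose 1.76-fold (adjusted p = 0.00145 and 0.0133). The proteoglycan versican, Vcan, rose 2.7-fold, normal nerve averaging 9.33 ± 3.68 CPM and the tumours 25.2 ± 7.99 CPM (SD, n = 6 per group) (adjusted p = 0.00638). Col3a1, the procollagen III chain, rose 4.3-fold, normal nerve averaging 55.4 ± 26.4 CPM and the tumours 238 ± 109 CPM (SD, n = 6 per group) (adjusted p = 0.00953). These genes were listed with earlier results of these data known, so their direction is no separate evidence.

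In the other ADAMTS genes 1 of 6 passed, beside 18.7% of all tested genes. Adamts7 (chromosome 9, 90163069 to 90208071, plus strand), which cleaves cartilage oligomeric matrix protein and acts in vascular smooth muscle, measured 6.29, 3.31, 4.43, 3.89, 4.06 and 2.19 CPM in normal nerve and 7.74, 9.8, 7.22, 8.25, 6.34 and 7.31 CPM in tumours. The groups did not overlap, though normal nerve replicate 1 at 6.29 CPM came close to plexiform neurofibroma replicate 5 at 6.34 CPM. Adamts7 rose 1.92-fold, normal nerve averaging 4.03 ± 1.36 CPM and the tumours 7.78 ± 1.17 CPM (SD, n = 6 per group), and the fit gave a log2 fold change of 0.94, an SE of 0.21 and an adjusted p of 0.00962. The range of Tbc1d2b on the other strand overlaps its end, and Tbc1d2b itself was not called (edgeR adjusted p = 0.0894). Adamts12, its closest relative, ranged from 0.203 to 2.36 CPM over all libraries, with a log2 fold change of 0.39 (adjusted p = 0.498, SE 0.39). Adamts10, which works on fibrillin microfibrils, was the most abundant of this class, at 9.79, 11.3, 13.8, 8.34, 8.84 and 27.6 CPM in normal nerve and 8.66, 12.9, 9.05, 8.81, 6.46 and 8.87 CPM in tumours. Normal nerve replicate 6 was the highest of the 12 libraries, and the log2 fold change came to -0.54 (adjusted p = 0.189, SE 0.28). Adamts16, Adamts17 and Adamts6 had log2 fold changes of -0.65 (adjusted p = 0.116, SE 0.28), -0.31 (adjusted p = 0.26, SE 0.19) and 0.04 (adjusted p = 0.921, SE 0.26).

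ADAMTS-like genes, whose products lack the protease domain, held 2 higher members of 5, beside 10% of all tested genes. Adamtsl1 (chromosome 4, 85514172 to 86428385, plus strand), also named punctin-1, measured 11.6, 3.46, 9.84, 6.54, 9.48 and 14.9 CPM in normal nerve and 39, 47.9, 17.5, 40.7, 24.3 and 34.4 CPM in tumours. All tumour libraries lay above all normal ones, with plexiform neurofibroma replicate 3 nearest to the highest normal library, replicate 6. Adamtsl1 rose 3.66-fold, normal nerve averaging 9.29 ± 3.96 CPM and the tumours 34 ± 11.2 CPM (SD, n = 6 per group), and the fit gave a log2 fold change of 1.87, an SE of 0.32 and an adjusted p of 0.00399, and it had the lowest adjusted p of the 40 members. Its first part overlaps Sh3gl2 on the same strand. Sh3gl2, an endophilin of nerve terminals, went the other way, normal nerve averaging 134 ± 19.3 CPM and the tumours 87.2 ± 10.5 CPM (SD, n = 6 per group), with a fold of 0.651 (adjusted p = 0.0035). Adamtsl2, which binds fibrillin and a TGF-beta binding protein and is mutated in geleophysic dysplasia, measured 4.82, 1.48, 2.82, 2.71, 3.85 and 2.46 CPM in normal nerve and 5.94, 7.85, 4.53, 5.21, 5.53 and 4.21 CPM in tumours. It rose 1.83-fold and the fit gave a log2 fold change of 0.87, an SE of 0.25 and an adjusted p of 0.0306. The call was lost when normal nerve replicate 3 or 4, or plexiform neurofibroma replicate 1, 2 or 4, was left out (highest adjusted p = 0.0726), and also without the 3 libraries that held CNS or muscle RNA (adjusted p = 0.091). Adamtsl5 was the most abundant, at 62.6, 30.0, 40.5, 40.9, 45 and 19.9 CPM in normal nerve and 44, 79.3, 43.9, 66, 37.5 and 50.3 CPM in tumours. Its groups overlapped, with a log2 fold change of 0.43 (adjusted p = 0.246, SE 0.25). Adamtsl3 and Adamtsl4 were at -0.14 (adjusted p = 0.74, SE 0.26) and 0.01 (adjusted p = 0.982, SE 0.24).

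Of the 4 TIMP genes 1 passed, beside 18.7% of all tested genes. The 1 that passed was the least abundant of the 4 by CPM in normal nerve. Timp1 (chromosome X, 20870166 to 20874735, plus strand), the secreted inhibitor known to be induced by cytokines and nerve injury, measured 1.32, 1.07, 1.96, 0.973, 0.356 and 1.93 CPM in normal nerve replicates 1 to 6. In plexiform neurofibroma replicates 1 to 6 it measured 2.41, 8.19, 5.85, 8.09, 3.03 and 6.6 CPM. The highest normal value, in replicate 3, lay under the lowest tumour value, in replicate 1. Timp1 rose 4.45-fold, normal nerve averaging 1.27 ± 0.611 CPM and the tumours 5.69 ± 2.48 CPM (SD, n = 6 per group), and the fit gave a log2 fold change of 2.15, an SE of 0.40 and an adjusted p of 0.00473, the largest fold among the 40 members. Timp1 met the CPM level through its tumour libraries and 4 normal ones, and its counts were low in normal nerve.

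Timp2, which takes part in the activation of pro-Mmp2 by Mmp14, dominated the class. It measured 815, 794, 888, 826, 890.0 and 483 CPM in normal nerve and 632, 838, 798, 806, 673 and 731 CPM in tumours. Normal nerve replicate 6 was the lowest of all 12, the 5 other normal libraries lay at 794 CPM or above, and 3 tumour libraries lay between 632 and 731 CPM. The log2 fold change came to -0.07 (adjusted p = 0.752, SE 0.14). Timp3, which binds to the matrix and also inhibits Adam17 and aggrecanases, measured 305, 114, 188, 216, 246 and 169 CPM in normal nerve and 296, 332, 241, 305, 197 and 309.5 CPM in tumours. The fitted log2 fold change came to 0.44 (adjusted p = 0.142, SE 0.20). It passed as higher at 0.58 without normal nerve replicate 1 (adjusted p = 0.0486), in 1 of the 12 fits without 1 library. Of the 8 other settings 0 called it, with the highest edgeR adjusted p of 0.377 without the 3 libraries that held CNS or muscle RNA. Timp4, the TIMP best known from brain, heart and fat, measured 3.25, 4.98, 2.13, 1.95, 1.64 and 30.6 CPM in normal nerve and 5.69, 3.72, 2.95, 1.77, 3.08 and 1.88 CPM in tumours. A single library, normal nerve replicate 6, held 30.6 CPM, which was also the library with the most CNS marker RNA. With a log2 fold change of -1.21 (adjusted p = 0.245, SE 0.72) over all libraries, Timp4 was at 0.18 without it (adjusted p = 0.729).

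Per kilobase of transcript, Timp2 made up 81.7% ± 5.2 in normal nerve and 75.3% ± 3.25 in the tumours of the summed TIMP level (SD, n = 6 each). Timp3 followed with 17% ± 4.48 in normal nerve and 22.1% ± 3.17 in the tumours. Timp1 made up 0.602% ± 0.382 in normal nerve and 2.34% ± 0.825 in the tumours, so that even after its rise it stayed a small part of all TIMP RNA in bulk tissue. The Timp3 share depends on the length used, and with merged exons it was 11.2% in normal nerve and 14.8% in the tumours, while Timp2 stood at 87.4% and 82.3%.

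**Figure D3:**
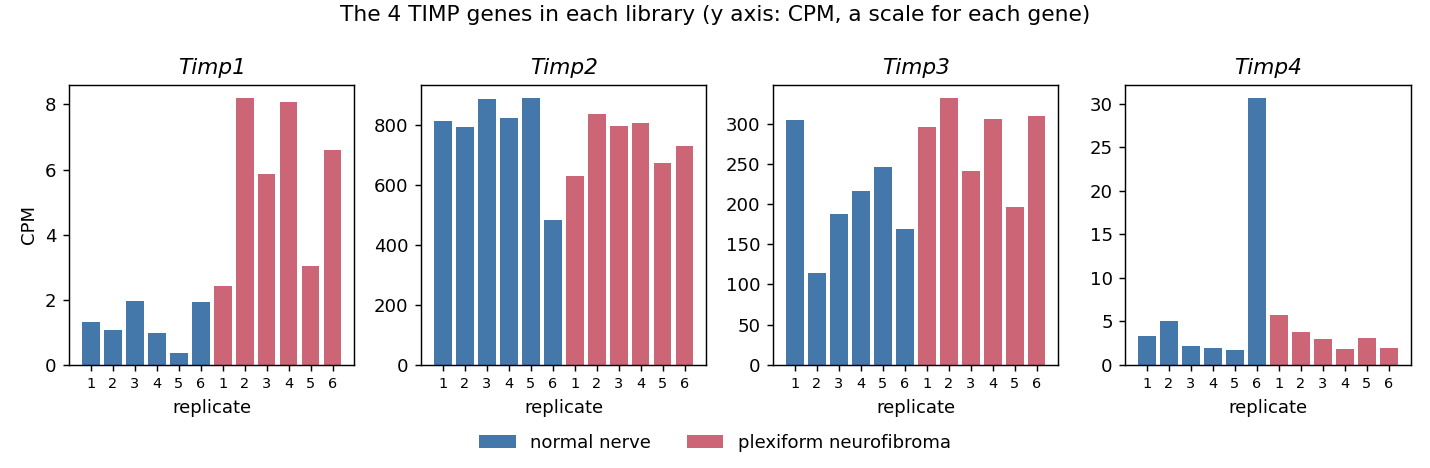
CPM of the 4 TIMP genes (y axis, a separate linear scale from 0 for each gene) in each library (x axis, replicate number; blue, normal nerve; red, plexiform neurofibroma). Timp1 is higher in every tumour library than in any normal one, Timp2 and Timp3 overlap between groups, and Timp4 stands out at 30.6 CPM in normal nerve replicate 6 alone.

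A point of gene structure bears on 3 of the TIMP values. Timp1, Timp3 and Timp4 each lie inside a synapsin gene on the other strand, Timp1 within Syn1, Timp3 within Syn3 and Timp4 within Syn2. The sources used here do not say whether counting by the authors used strand. Syn1 was lower in the tumours, normal nerve averaging 305 ± 39.4 CPM and the tumours 211 ± 35.5 CPM (SD, n = 6 per group) (adjusted p = 0.0118), opposite to Timp1. Syn3 was higher, normal nerve averaging 217 ± 62.1 CPM and the tumours 444 ± 95.5 CPM (SD, n = 6 per group) (adjusted p = 0.00471), the sign of the uncalled Timp3 value. Syn2 was lower, normal nerve averaging 139 ± 15.7 CPM and the tumours 102 ± 11.5 CPM (SD, n = 6 per group) (adjusted p = 0.00745), the sign of the uncalled Timp4 value. How reads were shared between these pairs was not tested.

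Both plasminogen activators were higher, beside 10% of all tested genes, and the receptor Plaur was not called. Plat (chromosome 8, 22757727 to 22782844, plus strand), the tissue-type activator, measured 32.9, 23.6, 27.8, 23.1, 22.3 and 40.1 CPM in normal nerve and 47.2, 48.4, 32.6, 58.4, 40.4 and 50.5 CPM in tumours. Normal nerve replicates 6 and 1 reached into the tumour range, and the other 4 normal libraries lay below it. Plat rose 1.63-fold, normal nerve averaging 28.3 ± 7.02 CPM and the tumours 46.3 ± 8.84 CPM (SD, n = 6 per group), and the fit gave a log2 fold change of 0.71, an SE of 0.17 and an adjusted p of 0.0127. Plau (chromosome 14, 20836660 to 20843385, plus strand), the urokinase-type activator, measured 7.1, 9.41, 6.04, 6.26, 6.34 and 5.91 CPM in normal nerve and 9.94, 9.05, 6.82, 9.97, 9.78 and 12.4 CPM in tumours. It rose 1.41-fold, normal nerve averaging 6.84 ± 1.32 CPM and the tumours 9.65 ± 1.79 CPM (SD, n = 6 per group), and the fit gave a log2 fold change of 0.49, an SE of 0.15 and an adjusted p of 0.0406. The call of Plau held when normal nerve replicate 2 or 6 or plexiform neurofibroma replicate 3 was left out, and was lost when any of the other 9 libraries was (highest adjusted p = 0.0922), with no filter (0.065), after the length correction (0.0673) and without the 3 libraries that held CNS or muscle RNA (0.148). Plaur, the urokinase receptor, measured 3.7, 5.75, 2.59, 2.71, 2 and 2.72 CPM in normal nerve and 3.48, 2.58, 2.59, 2.99, 5.82 and 2.39 CPM in tumours, with a log2 fold change of 0.02 (adjusted p = 0.965, SE 0.29). The sign of that value changed with the library left out.

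The wider plasminogen system showed no common direction. Of 12 tested genes from a list of 19, 2 were higher and 2 lower, beside 10% higher and 8.63% lower over all tested genes, with a median log2 fold change of 0.09. Serpine2, or protease nexin-1, an inhibitor of thrombin and plasminogen activators made by glia, rose 2.06-fold, normal nerve averaging 110.5 ± 48.8 CPM and the tumours 227 ± 47.6 CPM (SD, n = 6 per group) (adjusted p = 0.0142). The plasminogen receptor Plgrkt rose 1.33-fold (adjusted p = 0.0118). Lrp8, a receptor for reelin and some serpin complexes, fell to 0.705 of the normal level (adjusted p = 0.00298), and Serpini1, the neuronal inhibitor neuroserpin, fell to 0.759 (adjusted p = 0.0253).

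Other genes that act on or beside these proteases were counted against the same shares of all tested genes, 10% higher and 8.63% lower. Of 19 MMP activators, inhibitors and receptors, 5 were higher and 2 lower, with a median log2 fold change of 0.03. Spp1, the MMP substrate osteopontin, rose 2.96-fold, normal nerve averaging 171 ± 59.7 CPM and the tumours 506 ± 149 CPM (SD, n = 6 per group), and Cd63, a membrane partner of Timp1, rose 1.6-fold (adjusted p = 0.00329 and 0.0149). Pcolce, which speeds the removal of the procollagen C-propeptide, rose 2.58-fold (adjusted p = 0.0364). The neuronal proteoglycan Spock1 fell to 0.705 (adjusted p = 0.0222). Of 19 tested ADAM, tolloid and related proteases, 3 were higher and none was lower, though the median log2 fold change was -0.14. They were Fap, a serine protease of activated fibroblasts, at 2.99-fold, and the sheddases Adam17 and Adam10 at 1.7-fold and 1.57-fold (adjusted p = 0.0028, 0.00584 and 0.0414). Of 15 tested cathepsins and cystatins, 6 were higher and none was lower, with a median log2 fold change of 0.37. Cst6 and Cstb, both cysteine protease inhibitors, rose 1.68-fold and 1.26-fold, and the cathepsins Ctsz and Ctsc rose 1.43-fold and 1.82-fold (adjusted p = 0.00253, 0.00922, 0.00561 and 0.0181).

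Some marker lists of other cell types held called genes and others held none, beside 10% higher and 8.63% lower over all tested genes. Of 6 fibroblast markers, Lum, Dcn and Col1a1 were higher and none was lower, and the list summed to 133 to 978.5 CPM in normal nerve and 1071 to 2329 CPM in tumours. Dpt and Pi16 of this list stayed at means of 0.812 and 3.58 CPM in normal nerve and 1.28 and 4.17 CPM in tumours. The 6 Schwann cell markers summed to 2487 to 6203 CPM and 6302 to 11310 CPM, with 4 higher, and the 6 macrophage markers to 32.6 to 144 CPM and 102.7 to 207 CPM, with 2 higher. The 4 endothelial markers summed to 49.5 to 95.5 CPM and 35.1 to 63.3 CPM, with 1 lower. Of the perineurial markers 2 of 4 tested were higher, and of the mural and the bone and cartilage markers 1 of 4 each. None was called of 5 mast cell, 6 sensory neuron, 6 CNS, 2 neutrophil, 2 skeletal muscle, 2 osteoclast and 1 T and B cell markers tested. The part of cell makeup in the members' changes was not tested.

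The libraries differed in how the members stood within them. Plexiform neurofibroma replicate 2 had the highest value of 11 of the 40 members, and normal nerve replicate 6 that of 9. Normal nerve replicate 2 had the lowest value of 11 members, and it was the lowest normal library for 5 of the 9 higher members. Within the tumours, replicate 2 was the highest for 5 of these 9 and replicate 4 for 3, while replicate 5 was the lowest for 4 and replicate 3 for 3. Plexiform neurofibroma replicate 2 also had the highest summed fibroblast, Schwann cell and mural cell markers, and normal nerve replicate 2 the lowest of each.

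**Figure D4:**
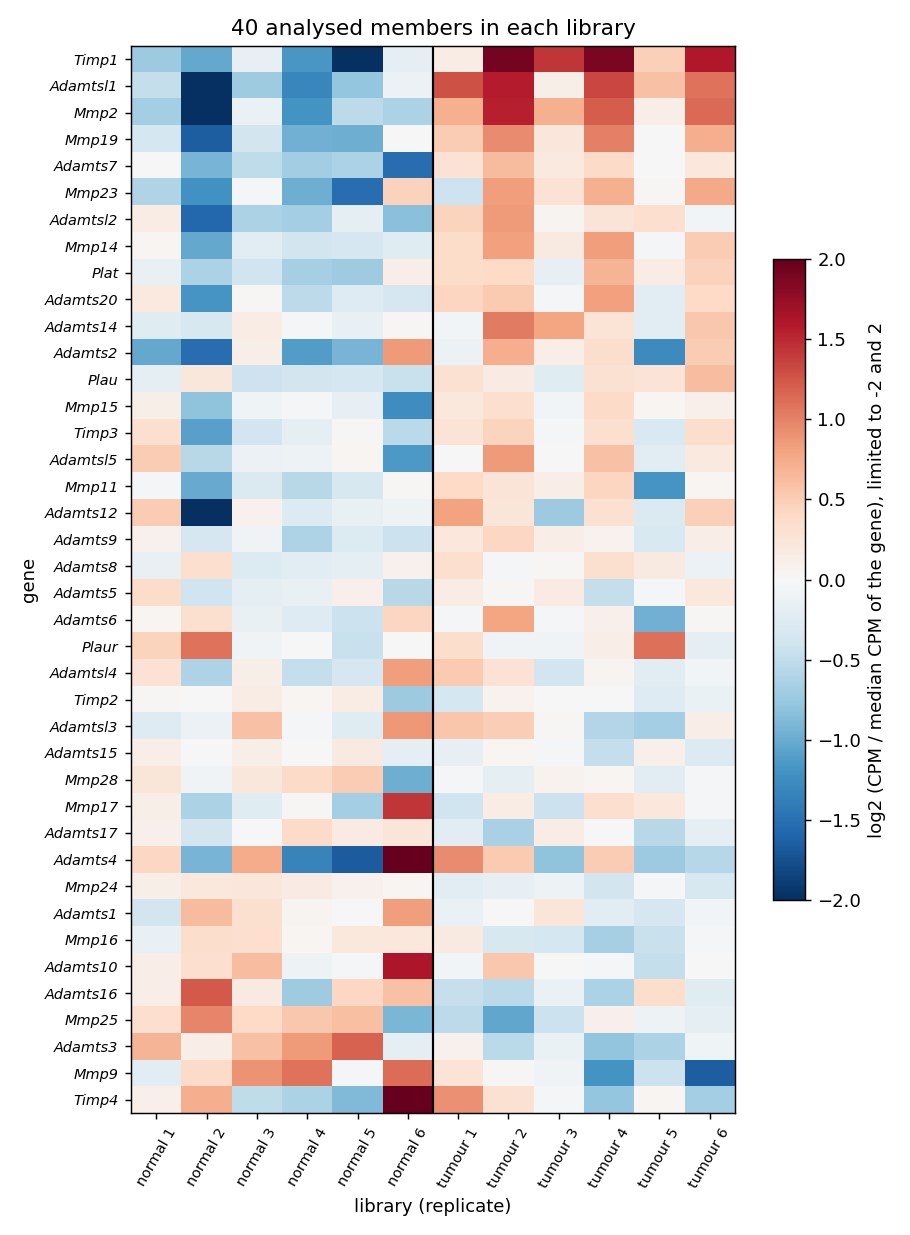
CPM of the 40 analysed members (rows, ordered by log2 fold change) in the 12 libraries (columns, the line parts the groups), as log2 of the ratio to the gene's median over all libraries. Timp1, Adamtsl1, Mmp2 and Mmp19 at the top are mostly red in the tumours and blue in normal nerve, and normal nerve replicate 6 departs from its group in Timp4, Adamts4, Adamts10 and Mmp17.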

How the data were processed

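For 12 samples the authors deposited estimated counts, 1 value per symbol and sample. Per the submitters' processing notes, STAR 2.4.2a, Salmon 0.60, FastQC and DESeq2 were used with mm10, with no role or order given. The annotation is not given in the sources used here, nor is the strand setting. Columns were matched to samples by title. Rounding made these deposited expected counts whole. Genes were filtered with filterByExpr, and plexiform neurofibroma was compared with normal nerve with edgeR 4.0.16, quasi-likelihood (R 4.3.3; TMM, robust, no covariate), with p-values adjusted over 17236 genes and called under 0.05. The SE printed with a log2 fold change is its absolute value divided by the square root of the quasi-likelihood F statistic. This fit was first run on simulated data. Symbols were matched to GENCODE vM21 (GRCm38) for positions and longest transcripts, and promoter sequences came from RefSeq. The alternatives were scaling by RLE or by the upper quartile, leaving the filter out or setting it at 1 CPM in 6 samples, DESeq2 1.42.0, limma-voom (limma 3.58.1) with sample weights, and each library left out. A transcript length correction, a fit without 3 libraries and merged exon length were added after seeing the data. The members, classes and lists were chosen with earlier results of these data known. Named genes were all analysed members, those below the level by name, and up to 4 called genes of each list by p-value.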

Additional observations from a re-analysis of the deposited data

Results flagged for a closer look

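A sample stood far from the other 5 of its group in 8 of 80 groups of values (2 groups for each of 40 members). For Gaussian values in separate groups, chance flags about 1 group in 20. The values here were CPM and the 80 groups share 12 libraries, so that rate cannot be set against the 8 flags. Normal nerve replicate 6 accounted for 5 of them. It was highest for Timp4 at 30.6 CPM (next highest 4.98 CPM), for Mmp17 at 26.9 CPM (10.8 CPM), for Adamts10 at 27.6 CPM (13.8 CPM) and for Adamts4 at 18.5 CPM (7.60 CPM), and lowest for Timp2 at 483 CPM (next lowest 794 CPM). In this library the CNS markers summed to 760.5 CPM and the sensory neuron markers to 3467 CPM, the highest and lowest sums of all 12 libraries. Normal nerve replicate 2 was highest for Plau at 9.41 CPM (next 7.10 CPM). Plexiform neurofibroma replicate 5 was lowest for Mmp11 at 1.57 CPM (next 3.69 CPM) and highest for Plaur at 5.82 CPM (next 3.48 CPM).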

How the results depend on the processing

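No paired analysis was possible because the labels carry no replicate numbers. The replicate numbers used here follow the order of the deposited samples within each group and pair nothing. Of the 11 calls among members, 9 were kept in all 20 alternatives, and those of Plau and Adamtsl2 were lost in the fits named with them. Members higher numbered 7 to 11 and members lower 2 to 4 over the 12 fits that left out 1 library. All genes called higher numbered 1092 to 2544 (6.3% to 14.6% of tested genes) and lower 801 to 2487 (4.62% to 14.2%) in those fits. The lowest were without plexiform neurofibroma replicate 4 and the highest without normal nerve replicate 6. DESeq2 and limma-voom each called 5 of the 40 members lower, beside 11.9% and 15.7% of all tested genes. Limma-voom called 2878 genes higher and 2707 lower in all, and with no filter 902 genes were lower. Without the 3 libraries with CNS or muscle RNA, 4 of the 40 members were lower, beside 10.9% of all tested genes. Of 800 member values under the alternatives, 26 changed sign, none of them of a called member. Over the fits without 1 library, log2 fold changes ran from -0.33 to 0.24 for Mmp17, -0.54 to 0.37 for Adamts4, -0.16 to 0.18 for Adamts6, -0.25 to 0.0409 for Adamtsl3, -0.0913 to 0.23 for Adamtsl4, -1.44 to 0.18 for Timp4 and -0.21 to 0.27 for Plaur. Limma-voom gave 0.17 for Mmp17, 0.43 for Adamts4 and 0.15 for Timp4. The length correction gave -0.0441 for Plaur. Without the 3 libraries, Mmp17 was at 0.32, Adamts4 at 0.53, Adamts5 at -0.0105, Adamtsl3 at 0.10 and Plaur at -0.13. The cause was not tested. Library totals ran from 14159973 to 19989325 counts. The 14 members below the CPM level did not enter the test, so their groups were not compared.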
